A study of Mus musculus with 6 samples.

Results

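The C/EBP family (CCAAT/enhancer binding proteins) was measured in sorted adult mouse hematopoietic stem cells (HSCs) on 6 single-colour expression arrays, 3 labelled PU.1 ki/ki and 3 labelled wild type (WT). Its 6 members were listed by name, with earlier results of these data known, as Cebpa, Cebpb, Cebpd, Cebpe, Cebpg and Cebpz. Every probe set of the deposited table that the platform annotation pairs with 1 of these symbols was taken. This gave 4 of 18193 genes with 8 of 45037 probe sets, 1 for Cebpa, 2 for Cebpb, 2 for Cebpd and 3 for Cebpg. The annotation used paired none with Cebpe or Cebpz, so these genes were not analysed here. The PU.1 ki/ki mice are homozygous for a knock-in at the PU.1 gene, and the published study of this mouse describes the allele as altering a PU.1 binding site in a distant enhancer of Spi1, the gene of PU.1. Cells of both genotypes came from adult mice and were sorted as lineage-negative, Sca1+, cKit+, CD150+ and CD48-. The labels name no further allele or treatment, and do not say whether a replicate is 1 mouse or a pool, nor give the sex or strain. The spread behind each p-value is that between these samples, and it may be technical.

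C/EBP proteins bind DNA as dimers through a basic leucine zipper and are best known in blood for driving the granulocyte and monocyte lineages together with PU.1. C/EBP-alpha commits progenitors to the myeloid lineage and restrains the cycling of stem cells. C/EBP-beta supports granulocyte output under stress and cytokine stimulation, C/EBP-delta belongs to the acute-phase response, and C/EBP-epsilon acts late in granulocyte maturation. C/EBP-gamma lacks a strong activation domain and works as a dimer partner of other family members and of ATF4. Cebpz carries a related name, but its product has no leucine zipper and acts in ribosome assembly.

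The promoters of the members help to place them, since PU.1 binds a GGAA core that all ETS factors share. RefSeq tables of the GRCm38.p6 build held a start site for Cebpa, Cebpb and Cebpg. The 250 bases before each start are shown 5′ to 3′ on the gene's own strand, with GGAA on either strand in capitals.
Cebpa, chr7:35119043-35119292, plus strand: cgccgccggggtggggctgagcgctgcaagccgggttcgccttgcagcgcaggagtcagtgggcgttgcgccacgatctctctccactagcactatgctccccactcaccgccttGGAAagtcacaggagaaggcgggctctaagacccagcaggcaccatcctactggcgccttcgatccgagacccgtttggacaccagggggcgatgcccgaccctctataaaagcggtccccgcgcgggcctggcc
Cebpb, chr2:167688665-167688914, plus strand: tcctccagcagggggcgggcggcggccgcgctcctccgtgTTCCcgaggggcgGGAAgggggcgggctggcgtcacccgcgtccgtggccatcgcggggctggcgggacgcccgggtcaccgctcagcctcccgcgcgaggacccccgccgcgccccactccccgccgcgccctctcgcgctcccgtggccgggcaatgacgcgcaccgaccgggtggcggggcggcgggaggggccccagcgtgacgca
Cebpg, chr7:35056567-35056816, minus strand: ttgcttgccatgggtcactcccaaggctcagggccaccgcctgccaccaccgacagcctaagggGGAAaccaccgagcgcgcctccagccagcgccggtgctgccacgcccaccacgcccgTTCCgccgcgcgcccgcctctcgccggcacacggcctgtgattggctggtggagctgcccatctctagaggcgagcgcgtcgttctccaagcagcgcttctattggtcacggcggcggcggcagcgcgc
The Cebpa window held 1 GGAA, 135 bases before the start, and the Cebpb and Cebpg windows held 2 each. This core was present in 93.4% of all 32851 promoter windows of that length, so it does not set these genes apart. The windows differed in other elements. Cebpa had a TATAAA 30 bases before the start, found on either strand in 12.4% of windows. Cebpb had 3 copies of TGACG, the core bound by CREB and ATF factors, at 180, 53 and 7 bases before the start, against at least 1 copy in 17.8% of windows. Cebpg had 2 copies of CCAAT, at 89 and 28 bases, a motif present in 33.8% of windows. The C/EBP motif TTGCNNAA, searched on both strands, had no match in the 3 windows and was present in 9.56% of all. Cebpb was the richest in G and C, at 81.6% against a median of 52.4% over all windows, with 66.4% for Cebpa and 70.8% for Cebpg. Cebpa and Cebpg are neighbours on chromosome 7, with no protein-coding gene of the RefSeq table between them.

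The 6 arrays differed in how many bright probe sets read low on them, which touches every result below. Signal was called lost for a probe set that read 512 or more in the median of 5 arrays and at least 4-fold less on the remaining array. Of such bright probe sets, 11.5% and 11.3% were lost on WT replicates 2 and 3. The share was 1.12% on WT replicate 1 and 0.119 to 0.219% on each PU.1 ki/ki array. For a WT array the other 5 include all PU.1 ki/ki arrays, so a difference between the groups can also count as lost. Whether the loss came from the arrays or from the cells was not tested. Spi1 read 170, 212 and 161 in PU.1 ki/ki and 158, 195 and 199 in WT HSCs, a log2 difference of -0.03, so this transcript does not tell the labels apart. The group means of all 10 measured markers of HSC identity lay above the mean array median of both groups, among them Kit, Procr, Mecom and Hlf. Of the genes of the sort gate, Slamf1 (CD150) read 696, 1525 and 170 in PU.1 ki/ki and 440, 54 and 42 in WT, and Cd48, sorted against, read 230, 90 and 290 and 704, 193 and 75. Cd34, a surface protein that multipotent progenitors carry and that was not part of the gate, did not overlap between the groups. The same held for 12.8% of all genes at 1 probe set per gene. Cd34 read 1152, 583 and 1196 in PU.1 ki/ki and 98, 64 and 200 in WT (3.09). Of the other progenitor markers measured, Flt3 was higher (0.53). Cd48 (-0.25), Il7r (-0.79) and Dntt (-0.56) were lower, and the groups overlapped for each of them and for Flt3. Klf1, an erythroid factor, also did not overlap, at 118, 123 and 159 against 42, 21 and 11. The other measured erythroid markers were lower in PU.1 ki/ki, at -0.97 to -0.04. Of these, Hba-a1 did not overlap, at 36, 47 and 36 against 65, 85 and 48. The 6 erythroid markers summed to 574 to 1021 in PU.1 ki/ki and 533 to 1482 in WT. The part of Cd34 and the erythroid markers in the results was not tested. All 10 measured neutrophil markers also lay above the median, with a summed intensity of 15530 to 22264 in PU.1 ki/ki and 21097 to 29297 in WT, and their part in the results below was not tested. In bulk RNA, fewer cells of a type and less RNA per cell cannot be told apart. The 6 mast cell and basophil markers summed to 132 to 177 in PU.1 ki/ki and 251 to 325 in WT. The 4 T and NK cell markers summed to 202 to 274 and 398 to 627. Both sums were low and without overlap, but of the single genes only 2 of the 6 and 1 of the 4 did not overlap. The largest part of the T and NK sum was Nkg7, whose groups overlapped, at 168, 194 and 98 against 481, 283 and 170. The 10 monocyte and macrophage markers summed to 5252 to 6732 and 4612 to 6418, mostly from Lyz2, with the macrophage antigen gene Adgre1 near the minimum at 10 to 25. Of these 10, 3 did not overlap between the groups, against 12.8% of all genes. The complement genes C1qb and C1qc, made by macrophages, read 567, 119 and 73 against 10, 10 and 10, and 226, 54 and 41 against 13, 35 and 29. Cx3cr1, a chemokine receptor, was lower at 32, 29 and 43 against 48, 53 and 138. The megakaryocyte markers summed to 1853 to 3813 in PU.1 ki/ki and 1298 to 1889 in WT, and the eosinophil markers to 76 to 907 and 76 to 520. For B cell markers the sums were 352 to 426 and 289 to 847, and for endothelial and stromal markers 1079 to 2566 and 473 to 1912. These sums overlapped between the groups. The part of all these markers in the results was not tested. Differences below are log2 of intensity + 1, PU.1 ki/ki minus WT, with the standard error (SE) of the limma fit over all probe sets.

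Cebpb and Cebpd, the members of the stress and acute-phase responses, read lower in PU.1 ki/ki than in WT HSCs on their brighter probe sets, without overlap between the groups. Cebpa and Cebpg did not separate the groups. No member passed the test after adjustment over all probe sets (limma, Benjamini-Hochberg, adjusted p under 0.05), nor did any of the 45037 (0.0%). At an unadjusted p under 0.05 there were 2 member probe sets, both lower, against 8.28% of all probe sets, 3.68% lower and 4.6% higher. The groups did not overlap in 2 of 8 member probe sets, both lower, against 12.1% of all probe sets, 5.46% lower and 6.62% higher. Of the 8 probe sets 4 were higher and 4 lower. Their median was -0.0048, close to the 0.0021 of all probe sets.

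**Figure D1:**
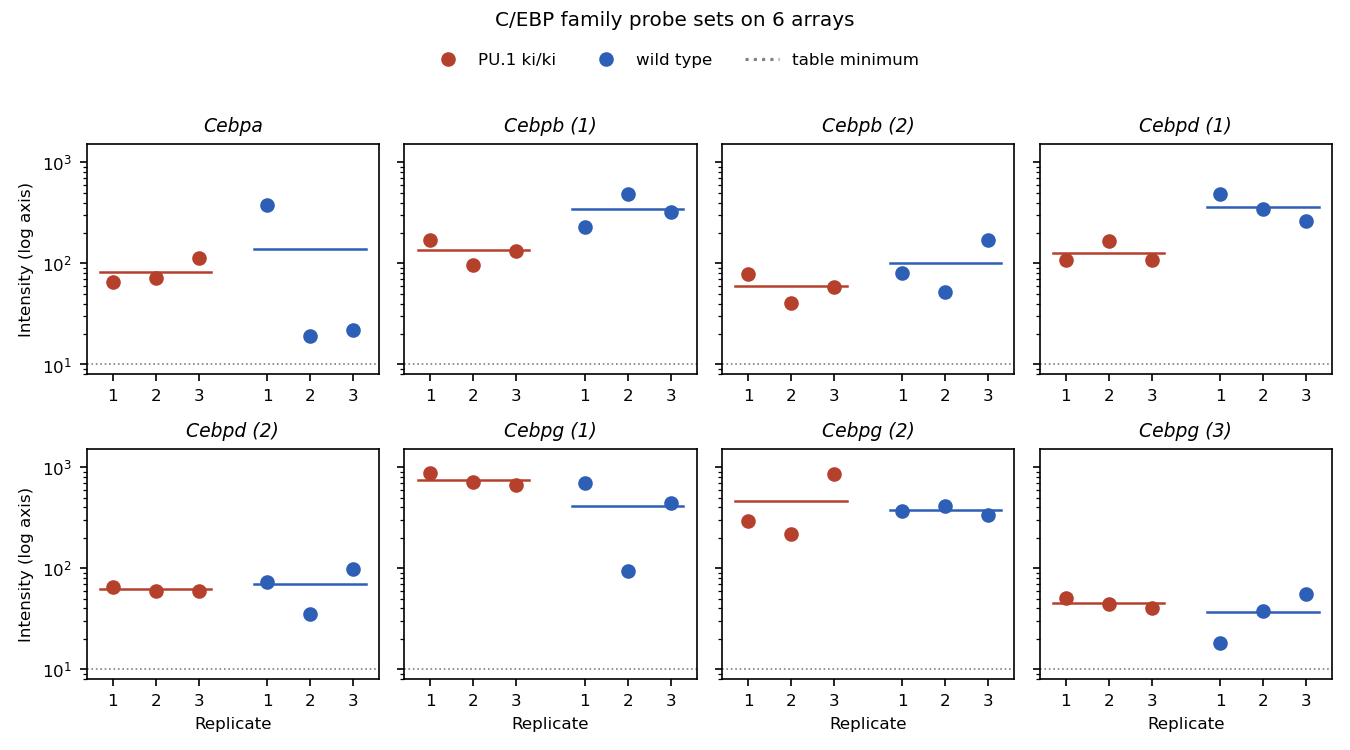
Intensity (log axis) of the 8 C/EBP probe sets on each array, with PU.1 ki/ki in red, WT in blue, lines at the group means and the table's minimum of 10 dotted; probe sets of a gene are numbered from the brightest. The PU.1 ki/ki points lie below all WT points for the first probe sets of Cebpb and Cebpd, while Cebpa spans 19 to 380 in WT.

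Cebpd, the acute-phase member, gave the largest difference among the probe sets whose groups separated. Its brighter probe set (1423233_at) read 108, 167 and 107 on PU.1 ki/ki replicates 1, 2 and 3 and 481, 346 and 261 on WT replicates 1, 2 and 3. Every PU.1 ki/ki array lay below every WT array, and the highest of them, 167, stayed clear of the lowest WT value of 261. The means were 127 ± 34.4 and 363 ± 111 (SD, n = 3), a difference of -1.49 ± 0.31 (SE, 95% interval -2.28 to -0.70), or 2.81-fold lower (limma, adjusted p = 0.463). By exact permutation, two-sided over the 20 regroupings, p was 0.1, which is the smallest that this number of arrays allows. In the table as a whole 0.999% of probe sets had a lower p and 0.484% a lower difference. WT replicate 1, the WT array with the least lost signal, read highest, and without WT replicates 2 and 3 the difference was -1.94. The dimmer probe set of Cebpd (1456605_at) read 65, 60 and 60 in PU.1 ki/ki and 73, 35 and 99 in WT. These values lie near the array medians of 41 to 46, with that of WT replicate 2 below them, the groups overlapped, and the difference was -0.04 ± 0.40 (adjusted p = 1.0). The annotation gives no accession for this probe set, so which part of the gene it reads is not known here.

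Cebpb, the member of stress granulopoiesis, followed with a difference of similar size. Its brighter probe set (1418901_at) read 172, 97 and 134 in PU.1 ki/ki and 229, 485 and 323 in WT HSCs. All PU.1 ki/ki arrays lay below all WT arrays, but the closest values, 172 and 229, were not far apart. The means were 134 ± 37.5 and 346 ± 129 (SD, n = 3), a difference of -1.33 ± 0.36 (SE, 95% interval -2.26 to -0.40), or 2.51-fold lower (limma, adjusted p = 0.509, exact permutation p = 0.1). WT replicate 2 read highest, although it is an array with lost signal. Against WT replicate 1 alone the difference was -0.80, so its size, unlike its direction, depended on the WT arrays used. The dimmer probe set (1427844_a_at) read 79, 41 and 59 in PU.1 ki/ki and 80, 52 and 170 in WT. It was lower too, by a difference of -0.62 ± 0.51, with overlap between the groups (adjusted p = 0.747), and without WT replicate 3 the difference was -0.16.

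Cebpa, the myeloid commitment factor, could not be placed, because its WT arrays lay above and below the PU.1 ki/ki arrays. Its only probe set (1418982_at) read 65, 71 and 112 in PU.1 ki/ki and 380, 19 and 22 in WT HSCs. WT replicate 1 was the highest of the 6 arrays and WT replicates 2 and 3 were the lowest, so that all 3 PU.1 ki/ki values fell inside the WT range. The WT values spanned a 20.0-fold range and the PU.1 ki/ki values a 1.72-fold range. The difference was 0.54 ± 1.25 (95% interval -2.66 to 3.74, limma, adjusted p = 0.926, exact permutation p = 0.9). It turned with the WT arrays, to -2.23 without WT replicates 2 and 3 (adjusted p = 0.321, against 0.146 to 1.0 over all settings run) and to 1.92 without WT replicate 1. An interval this wide holds both a 4-fold rise and a 4-fold fall.

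Cebpg, the partner member, was read by 3 probe sets that share 1 source sequence in the annotation. The brightest (1425262_at) read 871, 717 and 670 in PU.1 ki/ki and 701, 93 and 444 in WT HSCs. WT replicate 1 lay among the PU.1 ki/ki values, whereas WT replicate 2 fell to 0.133 of the median of the other 5 arrays and meets the definition of a lost bright probe set. The difference of 1.28 ± 0.79 (95% interval -0.75 to 3.31, adjusted p = 0.689) was 0.42 without WT replicate 2 and 0.09 without WT replicates 2 and 3. On the second probe set (1451639_at) the arrays read 291, 220 and 863 in PU.1 ki/ki and 370, 416 and 338 in WT. PU.1 ki/ki replicate 3 alone was high there, the difference was 0.03 ± 0.55 (adjusted p = 1.0), and without that array it was -0.56. The dimmest (1425261_at) read 51, 44 and 40 against 18, 38 and 55, around the array medians, with a difference of 0.40 ± 0.43 (adjusted p = 0.797). The 3 probe sets thus gave no common direction that held over the settings run.

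**Figure D2:**
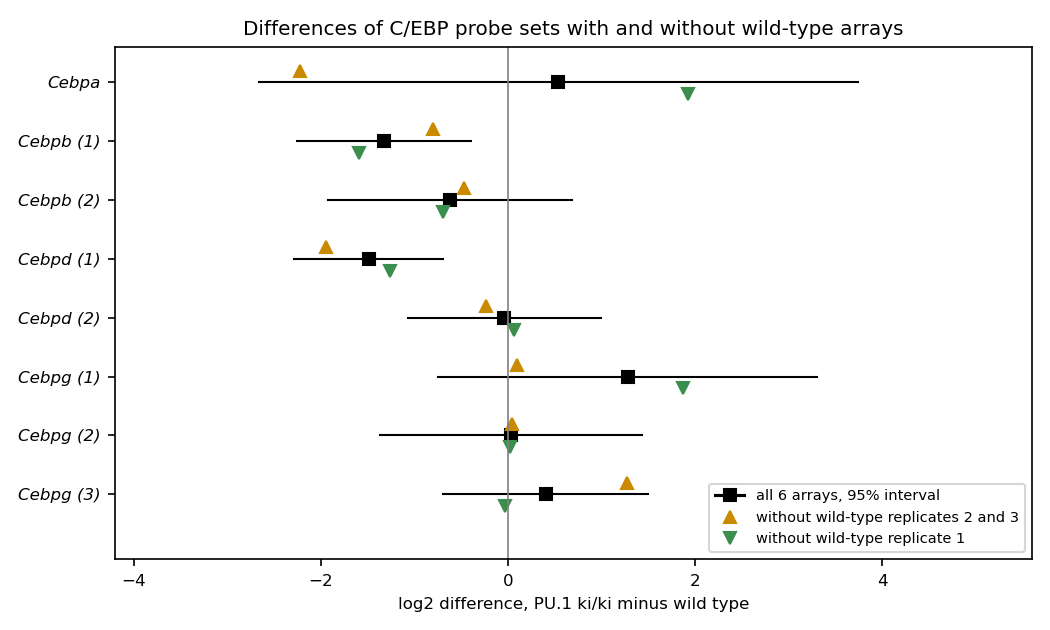
log2 difference (PU.1 ki/ki minus WT) of each C/EBP probe set with its 95% interval over all 6 arrays (squares), without WT replicates 2 and 3 (upward triangles) and without WT replicate 1 (downward triangles). The first probe sets of Cebpb and Cebpd stay below 0 in the 3 fits, whereas Cebpa lies at -2.23 without WT replicates 2 and 3 and at 1.92 without WT replicate 1.

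The genes whose pattern over the 6 arrays was most like that of Cebpa, among 14075 named probe sets with a mean intensity of at least 100, were Psmd3 (Pearson r = 0.991), a proteasome subunit, Uck2 (0.988), a kinase of pyrimidine salvage, and Prdx4 (0.984), a peroxiredoxin. Psmd3 read 153, 157 and 181 in PU.1 ki/ki and 511, 60 and 53 in WT, with the same high WT replicate 1 and low replicates 2 and 3. For the brighter probe set of Cebpb they were Tmem189 (0.992), Dbh (0.990) and Aarsd1 (0.985). Tmem189 read 153, 83 and 131 in PU.1 ki/ki and 222, 471 and 262 in WT. Among these probe sets, 68 had an r of at least 0.95 with Cebpa and 39 with Cebpb. An r over 6 arrays is imprecise, and the likeness was not tested.

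Granulocyte genes known as C/EBP targets were lower in PU.1 ki/ki HSCs more often than higher, and 0 of them passed the test. Of 23 measured, 16 were lower and 7 higher. Their median difference was -0.33, against 0.01 over all 18193 genes at 1 probe set per gene. Without overlap were 3 lower and 1 higher, or 17.4%, against 12.8% of all genes (6.36% lower and 6.44% higher). The granule protease gene Ctsg, for cathepsin G, read 804, 822 and 806 in PU.1 ki/ki and 3739, 1527 and 2219 in WT HSCs. Its PU.1 ki/ki values were nearly alike and lay below every WT value, for a difference of -1.52 ± 0.35 (adjusted p = 0.482). Mmp9, the granule gelatinase, read 85, 64 and 48 in PU.1 ki/ki and 217, 163 and 175 in WT. The difference was -1.51 ± 0.26 (adjusted p = 0.430), and its other probe set gave -1.05. S100a8, a calcium-binding protein of neutrophils, read 2284, 3040 and 2754 in PU.1 ki/ki and 3642, 3265 and 4133 in WT. This was a small separated difference of -0.45 ± 0.17 (adjusted p = 0.599).

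In the other direction Csf2ra, the GM-CSF receptor alpha chain, read 523, 321 and 244 in PU.1 ki/ki and 202, 60 and 202 in WT HSCs. The difference was 1.35 ± 0.60 (adjusted p = 0.627), and 0.77 against WT replicate 1 alone. On the other Csf2ra probe set it was 0.22. Csf3r, the G-CSF receptor and a direct target of C/EBP-alpha, read 104, 114 and 330 in PU.1 ki/ki and 95, 358 and 57 in WT, with full overlap. It is named here after its values were seen, as are Mpo and Elane. Mpo, for myeloperoxidase, read 4105, 4251 and 3027 against 6717, 3409 and 4570. Elane, for neutrophil elastase, read 1011, 739 and 833 against 3640, 1123 and 853, with WT replicate 1 alone far above the rest. That array also read highest for Cebpa, Cebpd, Mpo and Ctsg. The list's median ranged from -0.48 to -0.13 over single arrays left out, lowest without PU.1 ki/ki replicate 2 and highest without PU.1 ki/ki replicate 1. It was -0.26 without WT replicates 2 and 3 and -0.17 without PU.1 ki/ki replicate 3. The median was -0.18 without WT replicate 1 and -0.15 without WT replicate 2. After quantile normalization and median centring it was -0.42 and -0.44, against -0.07 and -0.10 over all genes. Of the 23 genes, 10 are also the neutrophil markers given above, so their level per cell and the number of granulocytic cells in the sort cannot be told apart. The sort took lineage-negative, cKit+ cells, a gate meant to leave out mature granulocytes, and whether it did so was not tested.

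**Figure D3:**
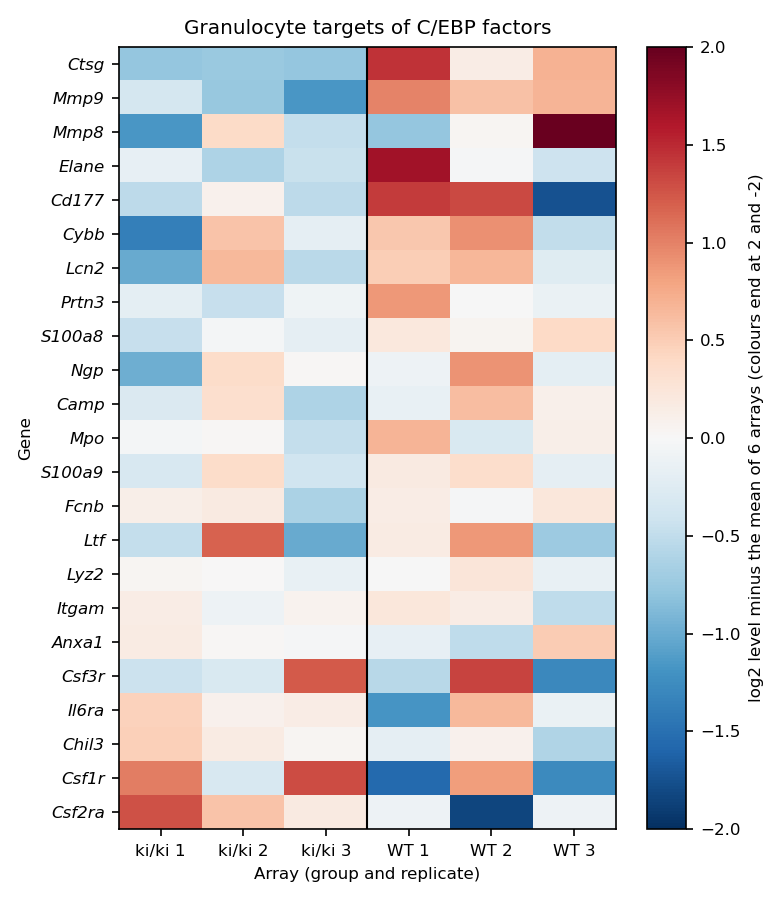
log2 level of the 23 measured granulocyte targets on each array, minus the gene's mean over the 6 arrays (red higher, blue lower, colours ending at 2 and -2), ordered by the difference between groups. Ctsg and Mmp9 at the top are low on all 3 PU.1 ki/ki arrays, while Csf3r and Ltf vary within both groups.

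Inflammatory genes driven by C/EBP-beta and C/EBP-delta were mostly too dim to compare. Of 17 measured, 12 had a mean below the array medians, 11 were lower and 6 higher, for a median of -0.07. It was -0.61 with dim probe sets left out (5 genes), against 0.16 over all probe sets kept, and -0.31 without WT replicate 1. Without WT replicate 3, and without WT replicates 2 and 3 together, the median was 0.0. Without overlap were 2, both lower, or 11.8% against 12.8% of all genes. Socs3, a feedback inhibitor of cytokine signalling through STAT3, read 13, 31 and 12 in PU.1 ki/ki and 820, 73 and 60 in WT HSCs, without overlap. The difference of -3.10 ± 1.14 (adjusted p = 0.594) was -1.90 without WT replicate 1 and -5.51 without WT replicates 2 and 3, and its 2 other probe sets gave -1.98 and -1.02. The PU.1 ki/ki values were close to the table's minimum of 10, so the size is uncertain. Nos2, the inducible nitric oxide synthase, read 33, 32 and 33 against 39, 55 and 61, separated but near background (-0.62 ± 0.20, adjusted p = 0.553).

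The leucine zipper partners of C/EBP proteins gave 12 higher and 5 lower of 17 measured genes, with 0 without overlap against 12.8% of all genes and a median of 0.32. That median was 0.11 without PU.1 ki/ki replicate 1, 0.17 with array weights and 0.16 with the mean of all probe sets per gene. With dim probe sets left out it was 0.48 (14 genes), against 0.16 over all probe sets kept. Ddit3, whose product CHOP binds C/EBP proteins and blocks their usual sites, read 248, 384 and 272 in PU.1 ki/ki and 164, 30 and 330 in WT HSCs. The groups overlapped and the difference was 1.32 ± 0.92 (adjusted p = 0.715), with the other probe set opposite in sign. Atf2 read 1746, 1702 and 1095 against 1112, 160 and 812, where WT replicate 2 was again the low array (1.49 ± 0.80, adjusted p = 0.661, and 0.41 without WT replicates 2 and 3). Atf4, the stress factor that pairs with C/EBP-gamma, read 963, 592 and 1848 against 2122, 846 and 1348, with overlap (-0.40, adjusted p = 0.844). Its 2 other probe sets had the opposite sign, at 0.16 and 0.37. Of 21 genes of the integrated stress response, the ATF4 and C/EBP-gamma programme, 7 were higher and 14 lower (median -0.17). The median was -0.045 without PU.1 ki/ki replicate 1, -0.089 without WT replicate 2 and -0.0093 with the mean of all probe sets per gene. After quantile normalization and median centring it was -0.31 and -0.28, against -0.07 and -0.10 over all genes. Only the amino acid transporter Slc7a5 separated the groups, at 531, 521 and 440 against 367, 254 and 117 (1.16 ± 0.45, adjusted p = 0.602), or 4.76% of the list against 12.8% of all genes.

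Of 20 measured genes that control C/EBP expression, translation or turnover, 10 were higher and 10 lower, with a median of 0.11. It became -0.04 after quantile normalization, where that of all genes was -0.07. Over single arrays left out the list's median ranged from -0.0085 to 0.33. Without overlap were 2, or 10% against 12.8% of all genes. Celf1, an RNA-binding protein that acts on Cebpb translation, read 651, 792 and 866 in PU.1 ki/ki and 920, 1086 and 1099 in WT HSCs (-0.43 ± 0.17, adjusted p = 0.602). Its groups separated narrowly, and 2 of its 4 other probe sets had the opposite sign. The kinase Gsk3b was the other separated gene, at 1382, 1387 and 1355 against 1341, 248 and 1242, a difference that was 0.09 without WT replicate 2. For Gsk3b, 3 of 5 other probe sets had the opposite sign. Gfi1, a transcriptional repressor, read 252, 183 and 96 against 554, 1161 and 232 with overlap (-1.69 ± 0.70, adjusted p = 0.613).

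Genes that C/EBP-alpha is known to repress or oppose in stem and progenitor cells gave 7 of 14 higher and 7 lower, a median of 0.01, and 1 gene in each direction without overlap, or 14.3% against 12.8% of all genes. The median was 0.47 with dim probe sets left out (11 genes), against 0.16 over all probe sets kept. It was -0.037 to 0.22 over single arrays left out. Myc, a growth factor-responsive transcription factor that C/EBP-alpha holds down, read 3482, 3084 and 3553 in PU.1 ki/ki and 1668, 2115 and 1867 in WT HSCs. These groups lay far apart relative to their spread, at 0.84 ± 0.15 (adjusted p = 0.430), and the difference was 0.76 to 0.93 when single arrays were left out. E2f3, of the E2F cell cycle factors that C/EBP-alpha inhibits, went the other way at 444, 467 and 373 against 1005, 897 and 557. The difference was -0.90 ± 0.27 (adjusted p = 0.535), and the other E2f3 probe set gave -0.17. Among 30 ribosome assembly genes, the setting in which Cebpz acts, 19 were higher and 11 lower (median 0.23), and 4 separated the groups, or 13.3% against 12.8% of all genes. The median was 0.027 without WT replicate 2, 0.072 without PU.1 ki/ki replicate 2 and 0.069 without WT replicates 2 and 3. After quantile normalization and median centring it was 0.097 and 0.12, against -0.07 and -0.10 over all genes. Noc3l, of the same family of assembly factors as Cebpz, read 263, 271 and 541 against 215, 200 and 131 (0.92 ± 0.37, adjusted p = 0.608), and its other probe set gave -0.09. Nop14 was higher at 0.53 ± 0.14, and Nolc1 and Gar1 were lower at -0.92 ± 0.39 and -0.55 ± 0.23, with adjusted p of 0.508, 0.618 and 0.614. For Nolc1, 1 of 2 other probe sets had the opposite sign.

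**Figure D4:**
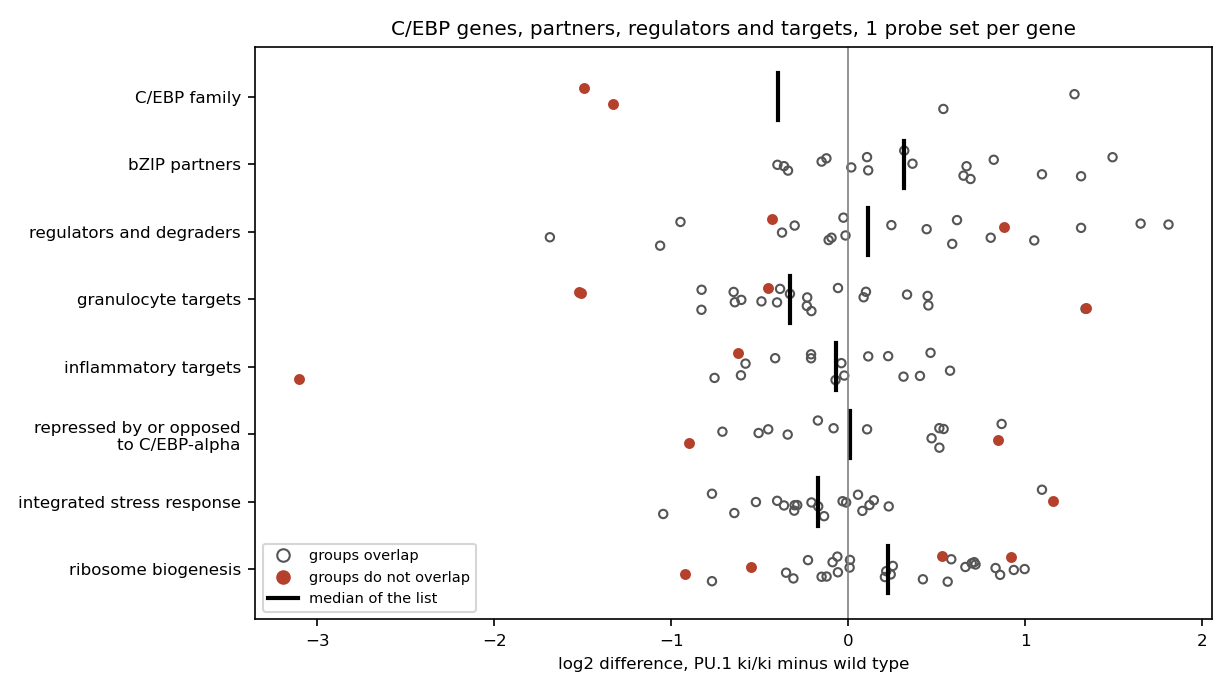
log2 difference (PU.1 ki/ki minus WT) of each measured gene, 1 probe set per gene, in the C/EBP family and 7 lists of partners, regulators and targets, with filled points where the groups do not overlap and bars at list medians. Medians lie between -0.39 for the family and 0.32 for the partners, and Socs3 is the point at -3.10.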

How the data were processed

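Biotin-labelled cRNA of total RNA from sorted HSCs was hybridised to 1 array per sample. The deposited values were intensities, for which the submitters' processing notes name RMA, with no version. They are whole numbers on a linear scale with a minimum of 10, whose conversion from the log scale is not described. Groups and replicate numbers came from sample titles. The sample descriptions speak of embryos, which no other label does, and were set aside.

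The 64 control probe sets among 45101 entries were dropped. Of the 45037 kept, 34945 had 1 symbol in the platform annotation, 932 several and 9160 none listed. For lists, the probe set with the highest mean stood for each of 18193 genes. Genotype was the only term of a linear model of log2(intensity + 1) fitted with limma 3.58.1 (R 4.3.3) and tested on simulated data. P-values were adjusted by Benjamini-Hochberg over all 45037 probe sets. Tables and figures used Python 3.11.15 and matplotlib 3.10.9. The number of arrays limits the precision.

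The members and lists were chosen with earlier results of these data known, as was leaving out WT replicates 2 and 3. The text names all member probe sets. Per list, the rule allows the 3 higher and 3 lower genes with the lowest p, and the text gives only some of these. Csf3r, Mpo, Elane, Gsk3b and the single marker genes lie outside it and were chosen after their values were seen. For likeness to Cebpa and Cebpb, 3 genes each were taken by Pearson r. Alternatives were quantile normalization, median centring, a pseudocount of 16, leaving out dim probe sets, a trended and robust prior, array weights, a block for the replicate number, and leaving out arrays.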

Additional observations from a re-analysis of the deposited data

How the results depend on the processing

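No C/EBP probe set had an adjusted p under 0.05 in limma under any alternative run, and neither did any of all probe sets. At an unadjusted p under 0.05 the counts were 2 and 3731. The latter were 2072 higher and 1659 lower, and 1558 and 2243 after quantile normalization. After median centring the median over all probe sets was -0.11. The brighter probe sets of Cebpd and Cebpb were lower in PU.1 ki/ki under all 14 alternatives, at -1.94 to -1.26 and -1.59 to -0.80, with adjusted p of 0.199 to 0.882 and 0.188 to 0.883. Of 111 recomputed member differences 10 changed sign. That of Cebpa became -0.20 without WT replicate 2, -0.10 without WT replicate 3 and -2.23 without both, in a range of -0.20 to 1.92 over single arrays left out. That of the dimmer Cebpd probe set became 0.06 without WT replicate 1 and 0.28 without WT replicate 3 (range -0.46 to 0.28). That of the second Cebpg probe set became -0.14 after quantile normalization, -0.078 after median centring, -0.56 without PU.1 ki/ki replicate 3 and -0.042 without WT replicate 3 (range -0.56 to 0.42). That of the dimmest Cebpg probe set became -0.030 without WT replicate 1 (range -0.030 to 0.75) and was 1.27 without WT replicates 2 and 3. The cause was not tested. Of 98 recomputed list medians 17 moved by more than the spread between arrays. Replicate numbers showed no sign of pairing the samples, since deviations of same-numbered arrays correlated at -0.02 to 0.02. With the replicate block 0 probe sets were called and 3369 had an unadjusted p under 0.05, and the block changed no adjusted call. Under it 1 member probe set, of Cebpd, had an unadjusted p under 0.05, since that of the brighter Cebpb probe set went from 0.014 to 0.061. Probe sets close to the minimum of 10 limit what can be compared.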
